A study of Homo sapiens with 10 samples.

Results

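The genes described are 10 immediate-early genes and feedback genes of the ERK pathway, taken by gene name from the 58735 genes of a count table of A253 cells. They are EGR1, EGR2, EGR3, IER2, IER3, SPRY2, SPRY4, SPRED1, SPRED2 and PHLDA1, and each name matched 1 row. A253 is a human line from a squamous cell carcinoma of the salivary gland, grown in medium with serum. The study compared control A253 cells with A253 cells in which DUSP1 had been edited, and RNA was sequenced from 3 groups of 2 libraries. The control cells (*sgRNA tomato*) carried a guide against dTomato, a gene that human cells lack. The clones Cl1 and Cl10 came from single cells that received a pair of intronic guides to remove exon 2 of DUSP1. The deletion is heterozygous in both, and on Western blots the paper saw no DUSP1 protein in either clone. The paper also reported more ERK activation in the clones than in control cells, in low serum and after serum was added. After serum it reported more JNK activation as well, and it concluded that JNK was responsible for the cell death after DUSP1 loss. Its methods do not say that the sequenced cells were in either of these serum conditions. All cells, the control included, were transduced with a guide vector and with Cas9, each with its own drug selection. Each edited group is 1 clone, so the deletion and other properties of a clone cannot be told apart within a comparison. The labels do not say that the libraries of a group came from separate cultures, so p-values measure the spread between these libraries, which may be technical.

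Growth factor receptors signal through RAS, RAF and MEK to the kinase ERK. ERK phosphorylates ternary complex factors, which sit beside the transcription factor SRF on CArG boxes, and the immediate-early genes start to be transcribed without new protein synthesis. Several of the genes induced by ERK then limit the pathway: Sprouty and SPRED proteins act upstream, on RAS and RAF, and dual-specificity phosphatases act on the kinases themselves. DUSP1, a nuclear phosphatase of ERK, JNK and p38, is itself an immediate-early gene. In keratinocytes and other squamous cells this pathway carries signals of the EGF receptor and takes part in proliferation and differentiation.

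Promoter sequences are shown for EGR1 and EGR2, which hold CArG boxes, and for PHLDA1, which held none of the searched motifs and had a large difference between clones and control. The RefSeq table (GRCh38.p14) had windows for 8 of the 10 genes, and only the 250 bases before each transcript start were read, on both strands. Motifs searched were the CArG box, the EGR sites GCGTGGGCG and GCGGGGGCG, the cAMP response element TGACGTCA, the ETS site CCGGAAGT, the AP-1 site TGANTCA, the E-box CACGTG and the TATA box TATAAA. Capitals mark CArG boxes, and each sequence reads 5′ to 3′ on the strand of its gene. The EGR1 window is chr5:138465229-138465478, plus strand. The EGR2 window lies before the innermost of its 3 RefSeq starts, chr10:62816374-62816616, minus strand, without 7 bases that an annotated exon holds. The PHLDA1 window is chr12:76031777-76032026, minus strand.
EGR1: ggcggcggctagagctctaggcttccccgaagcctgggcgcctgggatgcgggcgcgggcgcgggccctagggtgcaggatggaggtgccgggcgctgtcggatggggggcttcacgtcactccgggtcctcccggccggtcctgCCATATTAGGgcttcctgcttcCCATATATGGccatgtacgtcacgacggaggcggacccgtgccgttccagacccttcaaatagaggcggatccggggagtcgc
EGR2: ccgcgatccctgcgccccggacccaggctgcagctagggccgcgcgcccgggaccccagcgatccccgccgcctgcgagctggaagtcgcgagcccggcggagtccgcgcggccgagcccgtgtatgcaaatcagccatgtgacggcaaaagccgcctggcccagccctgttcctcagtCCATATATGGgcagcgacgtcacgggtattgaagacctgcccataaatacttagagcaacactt
PHLDA1: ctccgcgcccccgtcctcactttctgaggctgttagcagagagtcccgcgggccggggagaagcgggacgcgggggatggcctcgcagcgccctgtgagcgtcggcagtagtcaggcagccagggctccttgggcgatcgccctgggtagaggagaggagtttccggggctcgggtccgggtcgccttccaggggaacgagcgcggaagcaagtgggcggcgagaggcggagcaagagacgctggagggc

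The EGR1 window held 2 CArG boxes, starting 105 and 83 bases before the start, and the EGR2 window held 1, starting 71 bases before it. A CArG box was found in 1.159% of the 35116 RefSeq windows of that length. Of the other motifs, SPRY2 had 1 GCGGGGGCG at 41 bases (4.7243% of all windows have one), another EGR2 window had an E-box at 30 bases (6.3447%) and the second SPRED2 window had TATAAA at 31 bases (10.7159%). The windows of IER2, SPRY4, SPRED1 and PHLDA1 had no match. These are letters found in a window and not measured binding.

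Library totals ran from 47016495 to 70986593 counts. Levels are CPM, counts divided by library size as adjusted with TMM factors over the 6 libraries. DUSP1, the edited gene (chr5:172768096-172771195, minus strand), stood at 12.9 and 11.04 CPM in the control libraries, 5.28 and 6.15 CPM in Cl1, and 8.60 and 7.21 CPM in Cl10. Its log2 fold change was -1.07 (SE 0.149, edgeR adjusted p = 0.000291) in Cl1 and -0.59 (SE 0.134, edgeR adjusted p = 0.0113) in Cl10, on counts over the whole gene, so RNA that lacks exon 2 is still counted. The Cl10 call was lost without Cl10 replicate 2 (-0.48, edgeR adjusted p = 0.0846). The squamous markers KRT5, KRT14, TP63, CDH1, EPCAM, DSG3 and ITGA6 summed to 10850 to 13095 CPM in every library. Most of this sum was KRT5 and KRT14, and 2 of the 7 markers passed as higher in each clone. CDH1 averaged 347 CPM in the control, 620 CPM in Cl1 and 441 CPM in Cl10, and ITGA6 averaged 970, 1431 and 1899 CPM. Summed leukocyte markers (5 genes) reached 6.19 and 6.99 CPM in the control, 10.4 to 13.9 CPM in Cl1 and 8.75 to 9.90 CPM in Cl10, nearly all of it CD14. The 1 leukocyte marker tested passed as higher in Cl1 (log2 fold change 0.87) and in Cl10 (0.50). Fibroblast markers summed to 27.3 to 31.7 CPM in the control, 30.9 to 32.2 CPM in Cl1 and 18.7 to 18.8 CPM in Cl10, mostly COL1A1, with LUM at 0 in every library. Of the 2 fibroblast markers tested, 1 passed as lower in Cl10. Endothelial markers reached at most 7.75 CPM, mostly VWF, with KDR at 0 throughout. VWF passed as higher in Cl1 (0.93, edgeR adjusted p = 0.0102), and CDH5 did in Cl10 (2.28, edgeR adjusted p = 0.0229) at 0.6999 CPM or less. Of 3 myoepithelial markers, which summed to 4.50 to 5.12 CPM in the control and 3.28 to 3.87 CPM in the clones, ACTA2 was lower in Cl1 (-1.48, edgeR adjusted p = 0.00368) and in Cl10 (-2.87, edgeR adjusted p = 0.000722). Acinar markers summed to 0.672 CPM or less. The part of these markers in the differences of the 10 genes was not tested. Fewer expressing cells and less RNA per cell cannot be told apart in these bulk libraries.

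In Cl1, EGR1, EGR3 and SPRY4 were higher than in the control, IER3 and PHLDA1 were lower, and the other 5 genes did not pass (a gene passes at an edgeR adjusted p under 0.05 over all genes tested). Of all 20153 genes tested in that comparison, 12.4% passed as higher and 12.8% as lower, or 2489 and 2575 genes. This split depended on the scaling, with 1942 higher and 3192 lower by library totals alone, while the calls of the 10 genes stayed at 3 higher and 2 lower. In Cl10, SPRY4 and SPRED2 were higher, IER2, IER3 and PHLDA1 were lower, and 5 genes did not pass, against 20.6% of 19875 genes higher and 21.8% lower. The median log2 fold change of the 10 genes was 0.14 in Cl1 (range -1.59 to 2.58) and 0.09 in Cl10 (range -1.15 to 1.54), beside -0.013 and -0.011 for all genes tested. EGR3, the top of both ranges, entered both comparisons through the clone libraries alone, so its Cl1 call adds no weight to the tally. Both comparisons use the same 2 control libraries. The 10 genes were mixed in direction in each clone, as were all genes tested, so the mix is not particular to these genes. In Cl10 the 2 higher and 3 lower of 10 are near the shares of all genes.

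**Figure D1:**
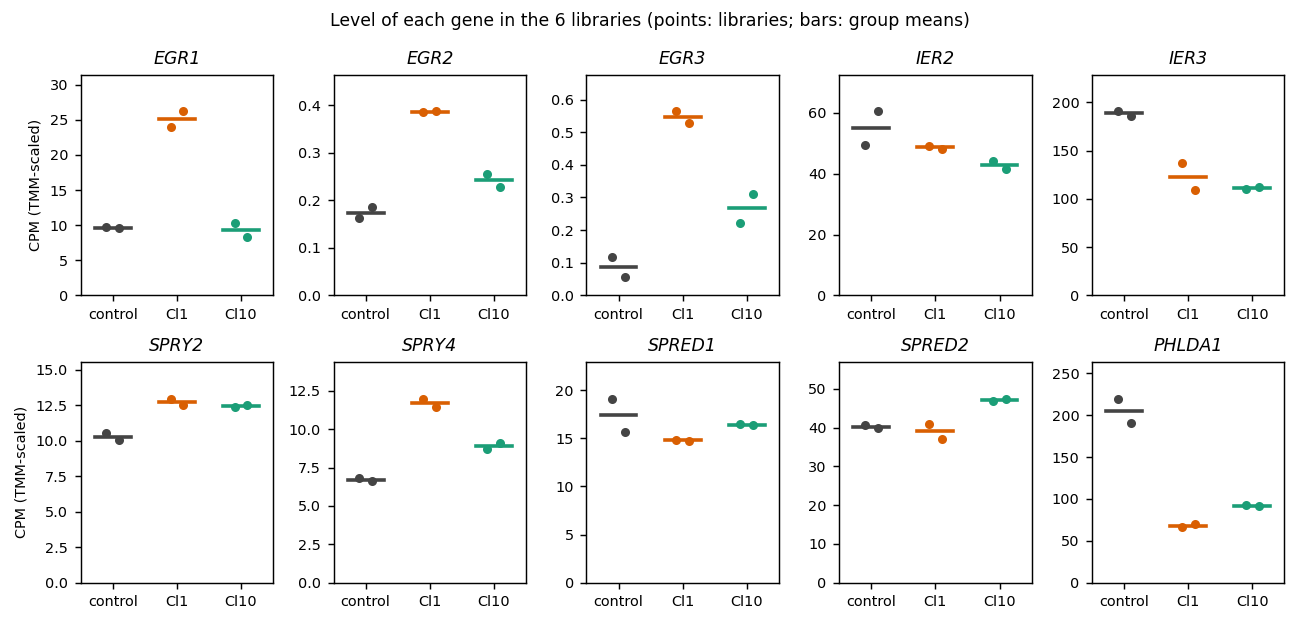
Level of each of the 10 genes in the 6 libraries, in TMM-scaled CPM on linear axes that start at 0. Points are libraries and bars are the means of 2 libraries. EGR1 lies at 23.99 and 26.2 CPM in Cl1 and at or below 10.2 CPM in the other 4 libraries, and PHLDA1 lies at 191 CPM or more in the control and at or below 92.2 CPM in the clones.

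EGR1, a zinc finger transcription factor and a classical ERK-induced immediate-early gene (ENSG00000120738, chr5:138465479-138469303, plus strand), was measured at 9.79 and 9.53 CPM in the control, 23.99 and 26.2 CPM in Cl1, and 10.2 and 8.25 CPM in Cl10. Both Cl1 libraries lay above all other libraries, and the Cl10 libraries lay on either side of the control. In Cl1 the log2 fold change was 1.38 (SE 0.121, edgeR adjusted p = 7.67e-06), a 2.60-fold higher level, and it passed under all 11 alternative fits (1.31 to 1.44 with 1 library left out). In Cl10 it was -0.06 (SE 0.129, edgeR adjusted p = 0.755). Leaving out Cl10 replicate 2 turned this small value to 0.086. The CArG boxes printed above belong to this gene and to EGR2.

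EGR2, a factor of the same family (ENSG00000122877, chr10:62811996-62819167, minus strand), had few reads: 11 and 10 counts in the control, 26 and 19 in Cl1, and 15 and 11 in Cl10. In CPM these were 0.162 and 0.187, then 0.386 and 0.387, then 0.256 and 0.229. The Cl1 libraries were the highest, but the log2 fold changes of 1.15 (SE 0.448, edgeR adjusted p = 0.0777) in Cl1 and 0.49 (SE 0.436, edgeR adjusted p = 0.392) in Cl10 did not pass. For Cl1 the adjusted p over the alternatives ran from 0.0450, with a minimum of 10 counts in every library, to 0.273. By counting error alone, the ratio of summed counts scaled to depth was 2.24 (exact 95% interval 1.30 to 3.95) for Cl1 and 1.41 (0.763 to 2.64) for Cl10.

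EGR3 (ENSG00000179388, chr8:22687659-22693480, minus strand), which overlaps EGR1 in its binding sites, had 8 and 3 counts in the control, 38 and 26 in Cl1, and 13 and 15 in Cl10. The levels were 0.118 and 0.056 CPM, 0.564 and 0.529 CPM, and 0.222 and 0.312 CPM. All 4 clone libraries lay above both control libraries. Its log2 fold change was 2.58 (SE 0.497, edgeR adjusted p = 0.00243) in Cl1 and passed under each of 10 fits that could test it. In Cl10 it was 1.54 (SE 0.552, edgeR adjusted p = 0.0574), and over the alternatives its adjusted p ran from 0.0223, without control replicate 1 (2.19), to 0.236. The ratio of summed counts was 6.07 (exact 95% interval 3.18 to 12.8) for Cl1 and 2.90 (1.40 to 6.46) for Cl10, which covers counting error only. In the comparisons with the control, EGR3 entered the test through the clone libraries alone, since neither control library reached the filter's level (0.167 CPM in the Cl1 comparison and 0.180 CPM in the Cl10 comparison), and for EGR2 only 1 control library did. An antisense RNA annotated across EGR3 (ENSG00000253125) had 0 counts in both control libraries, 4 and 5 in Cl1 and 9 in each Cl10 library, and without the strand setting of the counting, reads of the pair cannot be told apart.

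IER2, a nuclear protein induced early by growth factors (ENSG00000160888, chr19:13150411-13154911, plus strand), was at 49.3 and 60.4 CPM in the control, 49.0 and 48.1 CPM in Cl1, and 44.3 and 41.6 CPM in Cl10. Control replicate 2 stood above the other 5 libraries, which lay between 41.6 and 49.3 CPM. The log2 fold change was -0.17 (SE 0.120, edgeR adjusted p = 0.325) in Cl1, and without control replicate 1 it passed (-0.31, edgeR adjusted p = 0.0103). In Cl10 it was -0.35 (SE 0.111, edgeR adjusted p = 0.0405). The Cl10 call was lost without Cl10 replicate 1 (-0.39, edgeR adjusted p = 0.137) and without Cl10 replicate 2 (-0.31, edgeR adjusted p = 0.252).

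IER3, a stress- and ERK-responsive protein linked to cell survival (ENSG00000137331, chr6:30743199-30744548, minus strand), was at 191 and 186 CPM in the control, 137 and 109 CPM in Cl1, and 110.5 and 112 CPM in Cl10. It was lower in all 4 clone libraries. The log2 fold change was -0.61 (SE 0.131, edgeR adjusted p = 0.0048) in Cl1 and -0.75 (SE 0.0785, edgeR adjusted p = 0.000501) in Cl10, 1.53-fold and 1.69-fold lower levels. The Cl10 value passed under all 11 alternatives, and the Cl1 value under 10 of them, failing without Cl1 replicate 2 (-0.46, edgeR adjusted p = 0.155).

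The Sprouty genes encode inhibitors that ERK signalling induces and that act back on the receptor and RAS steps. SPRY4 (ENSG00000187678, chr5:142310427-142326455, minus strand) was at 6.81 and 6.60 CPM in the control, 11.99 and 11.4 CPM in Cl1, and 8.71 and 9.11 CPM in Cl10. The 3 groups were separate, with Cl1 above Cl10 and Cl10 above the control. The log2 fold change was 0.81 (SE 0.134, edgeR adjusted p = 0.000983) in Cl1, a 1.75-fold higher level that passed under all 11 alternatives. In Cl10 it was 0.41 (SE 0.108, edgeR adjusted p = 0.02), a 1.33-fold higher level, and the call was lost without Cl10 replicate 1 (0.45, edgeR adjusted p = 0.0999) and without Cl10 replicate 2 (0.38, edgeR adjusted p = 0.175). An antisense transcript, SPRY4-AS1, had 6 to 26 counts per library.

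SPRY2 (ENSG00000136158, chr13:80335976-80341126, minus strand) was at 10.5 and 10.0 CPM in the control, 13.0 and 12.5 CPM in Cl1, and 12.3 and 12.5 CPM in Cl10. The clone libraries lay above the control by similar amounts. The log2 fold changes of 0.31 (SE 0.127, edgeR adjusted p = 0.0914) in Cl1 and 0.28 (SE 0.0973, edgeR adjusted p = 0.0546) in Cl10 did not pass. In Cl10 the adjusted p over the alternatives ran from 0.00647, without control replicate 1 (0.31), to 0.331, and the value also passed without control replicate 2 (0.24, edgeR adjusted p = 0.0347). In Cl1 it ran from 0.0378, in a fit over all 6 libraries, to 0.361.

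SPRED1 and SPRED2 encode membrane-bound relatives of Sprouty that bring neurofibromin to RAS and so restrain RAF activation. SPRED1 (ENSG00000166068, chr15:38252836-38357249, plus strand) was at 19.1 and 15.7 CPM in the control, 14.9 and 14.7 CPM in Cl1, and 16.4 and 16.3 CPM in Cl10. The Cl10 libraries lay inside the range of the control. The log2 fold changes were -0.23 (SE 0.131, edgeR adjusted p = 0.216) and -0.08 (SE 0.115, edgeR adjusted p = 0.593). The control libraries decided these values: without control replicate 2 they were -0.36 (edgeR adjusted p = 0.0294) in Cl1 and -0.22 (edgeR adjusted p = 0.0163) in Cl10, and without control replicate 1 the Cl10 value was 0.065.

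SPRED2 (ENSG00000198369, chr2:65310851-65432637, minus strand) was at 40.6 and 39.9 CPM in the control, 40.9 and 37.1 CPM in Cl1, and 46.8 and 47.5 CPM in Cl10. Only the Cl10 libraries stood apart from the control. The log2 fold change was -0.04 (SE 0.108, edgeR adjusted p = 0.821) in Cl1 and 0.23 (SE 0.0755, edgeR adjusted p = 0.0431) in Cl10. This small Cl10 difference passed under 6 of 11 alternatives, and was lost without Cl10 replicate 1 (0.25, edgeR adjusted p = 0.320), without Cl10 replicate 2 (0.22, edgeR adjusted p = 0.387) and with DESeq2 (adjusted p = 0.0979).

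PHLDA1, a pleckstrin homology-like protein whose transcript follows ERK activity in many tumour lines (ENSG00000139289, chr12:76025447-76031776, minus strand), was at 219.6 and 191 CPM in the control, 66.9 and 69.5 CPM in Cl1, and 92.2 and 91.6 CPM in Cl10. The 3 groups were separate, with Cl1 the lowest. Its log2 fold change was -1.59 (SE 0.122, edgeR adjusted p = 2.69e-06) in Cl1 and -1.15 (SE 0.0958, edgeR adjusted p = 0.000223) in Cl10, 3.005-fold and 2.22-fold lower levels. Both passed under all 11 alternatives, with values from -1.68 to -1.48 and from -1.26 to -1.05 when 1 library was left out. No other member had a lower value in either comparison.

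**Figure D2:**
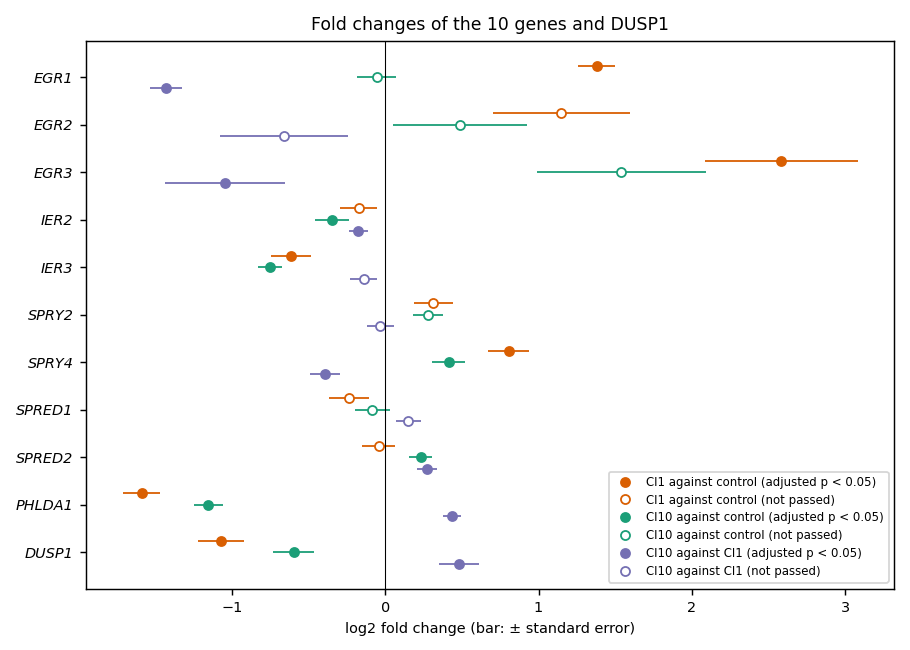
Log2 fold changes of the 10 genes and DUSP1 in the 3 comparisons, as points with bars of ± 1 standard error; filled points passed at an edgeR adjusted p under 0.05. EGR3 has the widest bars in the comparisons with the control and EGR2 in Cl10 against Cl1. EGR1 separates the clones, at 1.38 in Cl1 and -0.06 in Cl10.

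Cl10 was also compared with Cl1 directly, which tests whether the clones differ. EGR1, EGR3, IER2 and SPRY4 were lower in Cl10 than in Cl1, SPRED2 and PHLDA1 were higher, and EGR2, IER3, SPRY2 and SPRED1 did not pass. Of 19818 genes tested, 24.9% passed as higher in Cl10 and 24.1% as lower, so 6 of 10 is near the share of all genes. DESeq2 and the fit over 6 libraries each passed 4 of the 10, and library totals alone gave 3 higher and 2 lower. The EGR1 difference was -1.43 on the log2 scale (SE 0.103, edgeR adjusted p = 3.55e-07) and that of PHLDA1 was 0.43 (SE 0.0573, edgeR adjusted p = 4.74e-05), and both passed under all 11 alternatives. SPRY4 had a log2 difference of -0.39 (SE 0.0968, edgeR adjusted p = 0.00478), a call lost without Cl10 replicate 1 (-0.36, edgeR adjusted p = 0.0685). SPRED2 had one of 0.27 (SE 0.0658, edgeR adjusted p = 0.00411), a call lost without Cl10 replicate 2 (0.26, edgeR adjusted p = 0.0514). The calls for EGR3 (-1.04, SE 0.393, edgeR adjusted p = 0.0417) and IER2 (-0.17, SE 0.0615, edgeR adjusted p = 0.0324) were the least stable, passing under 4 and 5 of 11 alternatives. EGR3 lost its call without any one of the 4 libraries (values from -1.29 to -0.80, adjusted p from 0.0564 to 0.238), and IER2 lost it without Cl10 replicate 1 (-0.22, edgeR adjusted p = 0.104) or replicate 2 (-0.13, edgeR adjusted p = 0.343). For IER3 the value was -0.14 (SE 0.0858, edgeR adjusted p = 0.199), and the Cl1 libraries decided it, with 0.031 without Cl1 replicate 1 and -0.30 (edgeR adjusted p = 8.68e-10) without Cl1 replicate 2. SPRY2, at -0.03 (SE 0.0889, edgeR adjusted p = 0.789), SPRED1, at 0.15 (SE 0.0814, edgeR adjusted p = 0.143), and EGR2, at -0.66 (SE 0.416, edgeR adjusted p = 0.21), make up the rest. DUSP1 itself was higher in Cl10 than in Cl1 by 0.48 (SE 0.130, edgeR adjusted p = 0.00817), which did not pass without Cl10 replicate 1 (0.35, edgeR adjusted p = 0.133).

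The genes can be compared with each other only per length, as CPM per kilobase of annotated exon. In the control, IER3 was the highest at 139.6 CPM per kilobase, followed by PHLDA1 at 34.7, IER2 at 17.8, SPRED2 at 7.31, SPRY2 at 3.20, EGR1 at 3.08, SPRED1 at 2.25 and SPRY4 at 1.02. EGR2 at 0.047 and EGR3 at 0.0173 CPM per kilobase were far lower. In Cl1, EGR1 stood at 7.999 CPM per kilobase, above SPRED2 at 7.09, and PHLDA1 at 11.5 stood below IER2 at 15.8. In Cl10 the order down to SPRY4 was that of the control, with IER3 at 82.5, PHLDA1 at 15.5, IER2 at 13.9 and EGR1 at 2.95 CPM per kilobase. Neighbours in these orders had ranges over their 2 libraries that did not overlap, other than EGR2 and EGR3 in Cl10 at 0.0654 and 0.0530, and in the control SPRY2 and EGR1 nearly touched.

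**Figure D3:**
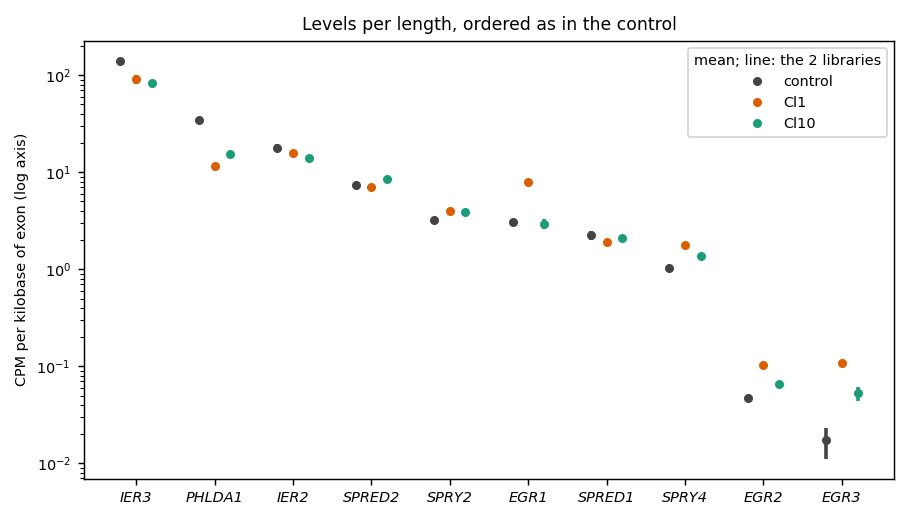
Level per length of each gene (CPM per kilobase of exon, log axis), ordered as in the control; points are means and lines span the 2 libraries of a group. IER3 is the highest in every group and EGR2 and EGR3 lie at about 0.1 or below.

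Other genes of the same pathway were counted from lists, against the background percentages given above. Over all lists, 98 genes with the heat-shock genes described below included, 23 were higher and 15 lower in Cl1, and 18 and 19 by library totals alone. In Cl10, 31 were higher and 20 lower, and 31 and 21 by library totals alone. Of 30 other immediate-early genes, 8 were higher, 2 lower and 20 did not pass in Cl1 (median log2 fold change 0.12), and 10 were higher, 4 lower and 16 did not pass in Cl10 (median 0.16). FOS, the partner of JUN in AP-1, was at 2.63 and 2.99 CPM in the control, 19.8 and 15.6 CPM in Cl1, and 6.45 and 5.93 CPM in Cl10. Its log2 fold change was 2.66 (SE 0.165, edgeR adjusted p = 4.63e-07) in Cl1 and 1.15 (SE 0.142, edgeR adjusted p = 0.000992) in Cl10. FOS was thus higher in both clones, and lower in Cl10 than in Cl1 (-1.51, edgeR adjusted p = 7.62e-07). FOSB, another AP-1 subunit (1.36 in Cl1 and 0.81 in Cl10), CSRNP1 (0.82 and 0.49) and KLF10, a TGF-beta-inducible repressor (0.59 and 0.72), also passed as higher in both.

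Of 25 other feedback and output genes of ERK that were tested, 8 were higher and 9 lower in Cl1 (median -0.08), and 9 were higher and 11 lower in Cl10 (median -0.09). DUSP6, the cytoplasmic phosphatase of ERK and its best known feedback gene, was at 7.07 and 8.28 CPM in the control, 15.5 and 11.97 CPM in Cl1, and 19.2 and 19.7 CPM in Cl10. It was higher in both clones, by 0.85 (SE 0.156, edgeR adjusted p = 0.00196) and 1.35 (SE 0.111, edgeR adjusted p = 0.000215), and in Cl10 more than in Cl1 (0.50, edgeR adjusted p = 0.00206). EPHA4 (0.81 in Cl1 and 1.14 in Cl10) and the cyclin CCND1 (0.80 and 0.70) were higher as well. AREG, a ligand of the EGF receptor (-1.13 and -1.39), ETV4 (-0.88 and -0.54) and ETV5 (-0.65 and -0.93), ETS factors often read as ERK outputs, were lower in both. Of the other phosphatases in this list, DUSP4 had the lowest log2 fold change of the list in Cl1 (-1.42). It averaged 36.2 CPM in the control, 13.5 CPM in Cl1 and 24.6 CPM in Cl10. DUSP5 averaged 33.5, 24.2 and 25.7 CPM in the same order, and DUSP7 averaged 81.5, 86.2 and 90.6 CPM. SPRY1, the Sprouty relative, went opposite ways: it was at 1.96 and 1.999 CPM in the control, 4.45 and 3.20 CPM in Cl1 and 1.04 and 1.21 CPM in Cl10. Its log2 fold change was 0.96 (SE 0.206, edgeR adjusted p = 0.00491) in Cl1 and -0.81 (SE 0.201, edgeR adjusted p = 0.0161) in Cl10.

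A list of 24 genes ran from EGFR through RAS, RAF and ERK to RPS6KA1 and RPS6KA3, with CBL, RASA1 and NF1 included. Of the 24, 5 were higher, 1 was lower and 18 did not pass, in Cl1 and likewise in Cl10. The kinase BRAF was the 1 gene that passed the same way in both, at 0.36 (edgeR adjusted p = 0.0427) in Cl1 and 0.45 (edgeR adjusted p = 0.00953) in Cl10. The list of SRF, ternary complex factors, MRTFA, MRTFB, CREB1 and corepressors of EGR proteins had 9 genes (SRF is also in the immediate-early list). Of the 9 genes, 2 were higher and 2 lower in Cl1, and 1 was higher and 3 lower in Cl10. NAB2, a corepressor that binds EGR proteins and that EGR1 induces, was at 69.8 and 72.4 CPM in the control, 43.4 and 39.1 CPM in Cl1, and 23.1 and 23.9 CPM in Cl10. Its level was lower in Cl1 and in Cl10, at log2 values of -0.78 (edgeR adjusted p = 0.000322) and -1.59 (edgeR adjusted p = 4.83e-05), and lower in Cl10 than in Cl1 (-0.81, edgeR adjusted p = 1.76e-06). The ternary complex factor ELK3 was lower (-0.70 and -0.45) and MRTFB, a coactivator of SRF, was higher (0.70 and 0.67) in both clones.

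Immediate-early transcripts also respond to the handling of cells, so heat-shock genes were counted beside them. Of 10, none was higher by edgeR and 1 was lower in Cl1 (median 0.08), with 1 higher at an unadjusted edgeR p under 0.05 and 1 by DESeq2, while 6 were higher and 1 was lower in Cl10 (median 0.44). HSPA1A, which shares reads with its near-identical copy HSPA1B and is uncertain for that reason, was at 47.8 and 84.8 CPM in the control, 77.3 and 63.0 CPM in Cl1, and 155 and 146 CPM in Cl10. All 10 heat-shock genes summed to 3446 and 4183 CPM in the control, 3379 to 3890 CPM in Cl1 and 4021 to 4147 CPM in Cl10. This sum mixes directions. HSPB1 averaged 1271 CPM in the control, 1209 CPM in Cl1 and 745 CPM in Cl10, and HSPA8 averaged 452, 546 and 914 CPM. The part of the heat-shock genes in the Cl10 differences of the 10 immediate-early and feedback genes was not tested.

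**Figure D4:**
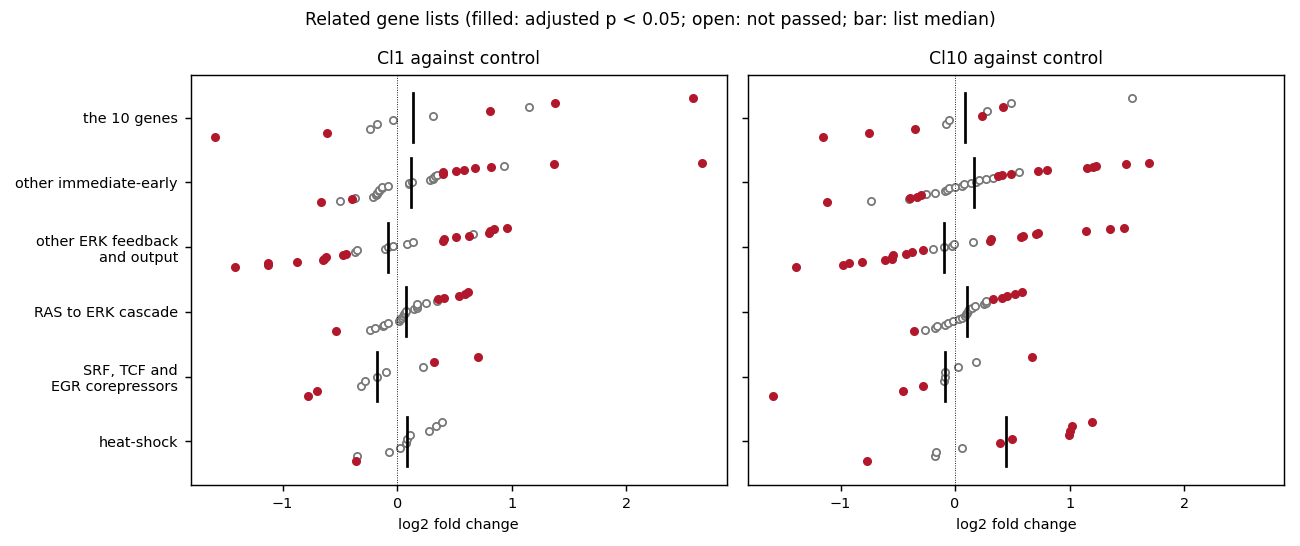
Log2 fold changes of the 10 genes and of 5 lists of related genes, Cl1 against control on the left and Cl10 against control on the right; filled points passed at an edgeR adjusted p under 0.05 and bars are list medians. Medians lie near 0 other than that of the heat-shock genes in Cl10, at 0.44.

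Each gene was also set beside the 50 genes nearest to it on its chromosome. For PHLDA1 the median over these neighbours was -0.28 (log2) in Cl1 and -0.30 in Cl10, for IER3 -0.18 and -0.10, for EGR1 0.19 and 0.14, and for DUSP1 -0.28 and 0.09. For the other members the medians lay between -0.09 and 0.13. With the neighbours' median subtracted, EGR1 was at 1.19 in Cl1, PHLDA1 at -1.31 and -0.85, IER3 at -0.43 and -0.66, SPRY4 at 0.84 and 0.29, and EGR3 at 2.52 and 1.54. The part of the PHLDA1 neighbours in its difference was not tested.

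**Figure D5:**
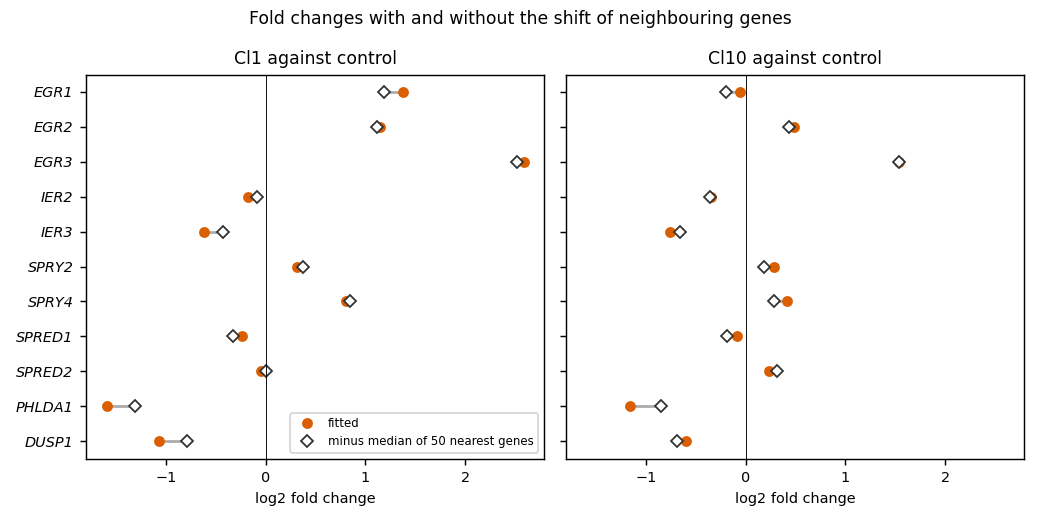
Log2 fold change of each gene and of DUSP1 as fitted (filled circles) and after the median of its 50 nearest genes was subtracted (open diamonds), in each clone against the control. PHLDA1 moves from -1.59 to -1.31 in Cl1 and from -1.15 to -0.85 in Cl10.

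Genes whose profile over the 6 libraries was most like that of EGR1 and SPRY4 were taken from 11654 genes with a mean of at least 5 CPM, by the root mean square difference of centred log2 CPM. For EGR1 these were GJA1 (0.092), GBP2 (0.097), TSPAN1 (0.132), THEM5 (0.137) and APOL1 (0.159). GJA1, the gap junction protein connexin 43, averaged 88.5 CPM in the control, 218 CPM in Cl1 and 79.6 CPM in Cl10. For SPRY4 they were JAG2 (0.045), SPARC (0.049), GPER1 (0.050), FIBCD1 (0.053) and NCOA4 (0.055). JAG2, a Notch ligand, averaged 105 CPM in the control, 173 CPM in Cl1 and 141 CPM in Cl10. With 6 libraries in 3 groups, likeness mostly reflects the 3 group means, and it is a description only.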

How the data were processed

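Poly(A)-selected RNA from A253 cells was sequenced as paired ends. Per the methods, HISAT2 placed reads on hg38 and HTSeq gave the gene counts; the submitters' processing notes also name StringTie and DESeq. The deposited values are raw counts for 58735 genes in 6 libraries, with no normalization. The strand setting and gene annotation of the counting are not given in the sources used here, and the labels and the methods name different library kits, so antisense and overlapping genes remain uncertain. The SOX2 libraries were not used here. GENCODE v44 held 58207 of the identifiers (99.906% of counts) and gave coordinates and exon lengths.

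The counts were tested with edgeR 4.0.16 in R 4.3.3 (filterByExpr, TMM, estimateDisp, glmQLFit, glmQLFTest), separately for Cl1 against control, Cl10 against control and Cl10 against Cl1, with Benjamini-Hochberg adjustment over all genes tested and a threshold of 0.05. Standard errors were taken from the F statistic, as the size of the unshrunk log2 fold change over the root of F. The scripts were tested on simulated data in which 200 genes were changed, all at mean levels above those of EGR2 and EGR3. That test therefore did not cover changes at such low levels. Alternatives were DESeq2 1.42.0, other scalings, other filters, a replicate block, 1 fit over 6 libraries, each library left out, and subtracting what the 50 nearest genes showed at their median. The members and lists were chosen with earlier results of these data known. Genes named from a list are the up to 4 that passed the same way in both clones with the largest smaller absolute fold change. FOS, DUSP6, ETV4, ETV5 and SPRY1 are named in any case. HSPA1A, GJA1 and JAG2 are named as examples, the first chosen after its values were seen. DUSP4, DUSP5, DUSP7, HSPB1 and HSPA8 were also added after their values were seen. Intervals on counts are exact Poisson or binomial and cover counting error only.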

Additional observations from a re-analysis of the deposited data

Results flagged for a closer look

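By the direct test of Cl10 against Cl1, 6 of the 10 genes differed between the clones, a share near that of all genes tested (24.9% higher and 24.1% lower). The log2 difference was -1.43 for EGR1, -1.04 for EGR3, -0.17 for IER2 and -0.39 for SPRY4, and 0.27 for SPRED2 and 0.435 for PHLDA1. DESeq2 and 1 fit over 6 libraries each passed 4 of the 10, and EGR3 and IER2 passed under only 4 and 5 of 11 alternatives.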

How the results depend on the processing

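Counts of genes passing stayed within 1.5 times in all 63 values from alternatives that kept every library; the members passing in Cl10 against Cl1 reached that limit, at 4 in place of 6, with DESeq2 and with 1 fit over 6 libraries. Library totals as the only scaling changed the balance of calls, to 1942 higher and 3192 lower in Cl1 against control (from 2489 and 2575) and to 5914 and 3939 in Cl10 against Cl1 (from 4932 and 4774). With 1 library left out, the members passing ranged from 2 to 7 in Cl10 against control (5 with all libraries) and from 3 to 6 in Cl10 against Cl1 (6). All genes passing ranged from 2535 to 7212 in Cl1 against control (5064) and from 4954 to 11951 in Cl10 against control (8439). List genes passing ranged from 18 to 49 (38) and from 29 to 75 (51) in those comparisons. The lowest counts came without a clone library. The spread within groups was unequal. Among genes with enough counts, 58.5% differed between the 2 control libraries beyond counting error (unadjusted chi-square p under 0.05). The share was 47.3% in Cl1 and 23.6% in Cl10. The part of this spread in the counts of genes passing was not tested. Fold changes that changed sign were small ones: SPRED2 in Cl1 (-0.11 to 0.028 with 1 library left out), EGR1 in Cl10 (-0.22 to 0.086), SPRED1 in Cl10 (-0.22 to 0.065), IER3 in Cl10 against Cl1 (-0.30 to 0.031) and, with library totals as the only scaling, SPRY2 in Cl10 against Cl1 (0.041). The cause was not tested. Replicate numbers did not pair the libraries (correlations of deviations -0.068, -0.018 and 0.010). With the replicate block, 5, 5 and 6 members passed; EGR3 in Cl10 passed (adjusted p = 0.0458) and SPRED2 in Cl10 did not (adjusted p = 0.107). EGR3 could not be tested against the control with a minimum of 10 counts in every library. With 2 libraries in a group, a fit without 1 of them assumes that the lone library varies like the other group. Depth limits EGR2 and EGR3.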

Other observations

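The paralogues of the 10 genes outside the set moved in several directions. IER5 was at 73.0 and 88.8 CPM in the control, 116 and 114 CPM in Cl1 and 87.9 and 89.5 CPM in Cl10, with log2 fold changes of 0.51 (edgeR adjusted p = 0.0095) in Cl1 and 0.14 (edgeR adjusted p = 0.331) in Cl10. IER5L was lower in Cl1 (-0.40, edgeR adjusted p = 0.0284), at -0.08 in Cl10. PHLDA2, an imprinted growth regulator, and PHLDA3, a p53 target that restrains AKT, were higher in Cl1 (0.63 and 0.41) while PHLDA1 was lower there. In Cl10 they were at -0.01 and -0.02 and did not pass. SPRY3 was higher in Cl10 (1.48, edgeR adjusted p = 0.00161) and at 0.67 in Cl1, from 39 to 126 counts per library. SPRED3 was lower in Cl10 (-0.61, edgeR adjusted p = 0.00515) and at -0.37 in Cl1. EGR4 had 8 to 20 counts per library and passed in neither comparison.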
